A study of Triticum aestivum with 12 samples.

Results

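Roots of wheat seedlings whose whole root system grew at low potassium (K) were compared with roots of seedlings whose whole root system grew at normal K. The comparison took the 3 arrays titled C. LK (0.005 mmol/L potassium sulfate in both compartments of a split-root box) and the 3 arrays titled C. NK (both compartments at 1.0 mmol/L), which are 6 of the 12 arrays of the study. All plants were of the genotype Tongzhou916, a wheat variety that the study selected for its tolerance of low K. They were raised for 3 weeks in normal K solution and then spent 5 days in the boxes, so that C. LK roots had been K-replete before the treatment. The other 6 arrays, 3 each from the low-K side (Sp. LK, 0.005 mmol/L) and the normal-K side (Sp. NK, 1.0 mmol/L) of plants with a divided supply, entered the fit for its estimate of the spread. Each array was described as 1 biological replicate of pooled plants, and the p-values measure the spread between such pools. Sp. LK and Sp. NK roots grew on opposite sides of split-supply plants, and the main fit did not pair these arrays.

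Potassium is the most abundant cation of plant cells, where it sets membrane potential and turgor and activates enzymes. Roots take it up through channels when the solution is rich in K and through high-affinity carriers when it is poor, and plant roots are known to raise the transcripts of such carriers within days of K withdrawal. Reactive oxygen species, calcium and the hormones ethylene and jasmonic acid are known to act in the signalling between low K and these transcripts.

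On the Affymetrix Wheat Genome Array each probe set stands for a transcript, in some cases for several that are alike. Bread wheat carries 3 closely related copies of most genes, so that 1 probe set can add up several copies. The deposited table holds 61290 probe sets, and 175 array controls and reporters were left out, which left 61115. Of these, 26541 probe sets (43.4%) had a mean log2 signal of 7 or more over the 12 arrays and are called brighter here. The weight of the description lies on them, since dim signals stand little above background. The table of gene names pairs 1273 of the probe sets with 1 gene symbol, most of them numbered LOC symbols without a described product, and 59842 with none. Unnamed probe sets are therefore given by their array identifier.

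The arrays had been scaled to a common mean (500.1 on the linear scale once the 2% brightest and 2% dimmest probe sets are set aside), and each difference is relative to that total. Across brighter probe sets, arrays of the same group correlated at 0.957 to 0.976 on the log2 scale and arrays of different groups at 0.946 to 0.978, so the ranges overlapped. Sucrose synthase, 1 of the quality-control transcripts, had a log2 difference between its 3′ and 5′ probe sets of 3.86 to 4.06 in C. LK and of 4.29 to 4.51 in C. NK, without overlap. The same difference for G-6-PDH overlapped, at 1.11 to 1.34 in C. LK and 1.25 to 1.28 in C. NK. The part of RNA quality in the results below was not tested.

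Under uniform low K, 245 brighter probe sets (0.923% of those tested) were up-regulated and 210 (0.791%) were down-regulated at the thresholds of the study's methods, which ask for a fold change above 1.5 and for p under 0.05 before adjustment. Among the rises the median log2 fold change was 0.75 and the highest 2.91, and 55 exceeded 2-fold. Among the falls the median was -0.73 and the lowest -2.19, and 37 exceeded 2-fold. No probe set passed an adjusted p of 0.05 in limma (Benjamini-Hochberg over 61115 probe sets). The smallest adjusted p was 0.46 over all and 0.51 among the brighter ones, while 3134 probe sets (5.13%) had an unadjusted p under 0.05. Without any effect, 3056 would be expected. Among the brighter ones 1357 had such a p, against 1327 expected. The individual rises and falls below are thus candidates at an unadjusted threshold, and the words rose and fell are used for probe sets past both study thresholds.

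Over all signal levels 1124 probe sets (1.84%) rose and 1105 (1.81%) fell, so most calls came from dimmer probe sets, with 879 rises and 895 falls. Every C. LK array lay above every C. NK array in 1130 brighter probe sets (4.26%) and below in 1453 (5.47%). If the labels of 3 against 3 arrays were random, such separation in either direction would have a probability of 0.1. Of the brighter calls, 167 of the 245 rises and 141 of the 210 falls had no overlap between the 3 C. LK and the 3 C. NK arrays. The median log2 fold change of all brighter probe sets was -0.01 and the median of its size was 0.14, below the median standard error of 0.19.

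**Figure D1:**
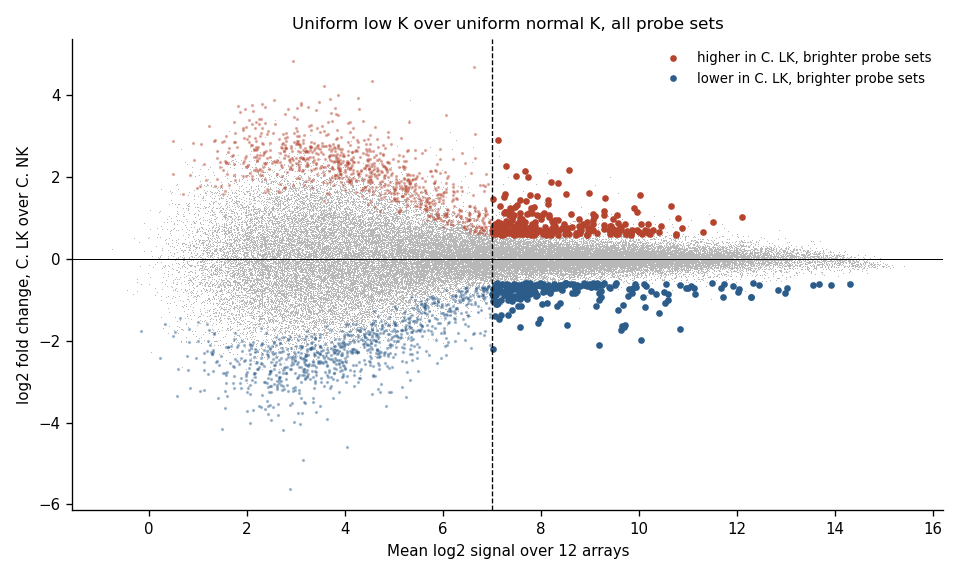
Each point is 1 of the 61115 probe sets, with the mean log2 signal over the 12 arrays on the horizontal axis and the log2 fold change of C. LK over C. NK on the vertical axis. The dashed line marks a mean log2 signal of 7, right of which the 245 rises (red) and the 210 falls (blue) are drawn as large points, and small pale points left of it are calls among dimmer probe sets.

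The balance between rises and falls changed with the signal level. Among the 12001 brighter probe sets with a mean log2 signal of 7 to 9 there were 183 rises (1.52%) and 141 falls (1.17%). Among the 9447 probe sets from 9 to 11 there were 59 rises (0.625%) and 47 falls (0.498%). Among the 5093 probe sets at 11 or more there were 3 rises (0.0589%) and 22 falls (0.432%), so falls outnumbered rises at the highest signals. These falls include 3 each from the clusters Ta.28394 and Ta.10 and 2 from Ta.24632. Probe sets of a cluster share an identifier number and may share sequence, which was not checked, so the falls cannot be counted as independent.

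The study placed 2 probe sets in potassium ion transport, the category closest to the treatment, and both rose. Ta.113.1.S1_at, named LOC543226, had signals of 738, 1055 and 699 in C. LK, against 248, 285 and 158 in C. NK. The groups were far apart, with 699 on the lowest C. LK array and 285 on the highest C. NK array. The log2 fold change was 1.87 (SE 0.32, limma adjusted p = 0.51), which is 3.65-fold, with means of 831 ± 195 in C. LK and 230 ± 65.7 in C. NK (SD, n = 3). Among brighter probe sets that rose it had the second smallest p, and it was the only named gene whose rise exceeded 1 on the log2 scale.

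The array sequence of this transcript was also the target of a primer pair in the study's PCR assay, which ties the identifier to a sequence. The pair is shown because it detects the transcript with the largest rise among brighter probe sets of named genes. The primers have 21 bases each, and capitals mark the last 5 bases at the 3′ end, where a polymerase starts.
LOC543226 forward: tgccaggacaaaccatACAGC
LOC543226 reverse: gccttccatagagcatGACCA

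The other potassium transport probe set, TaAffx.52479.1.S1_at, has no gene name and lay under the bound for brighter probe sets. Its signals were 178, 165 and 195 in C. LK, against 117, 132 and 71.9 in C. NK. The arrays did not overlap, and the log2 fold change was 0.79 (SE 0.31, limma adjusted p = 0.94). The call was lost without C. NK replicate 3, at 0.52, without C. LK replicate 3, at 0.73, and without C. LK replicate 1, at 0.79.

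Neither transcript was as high in Sp. LK roots, whose sister roots in the other compartment had normal K. That difference is set by the selection, since the study listed both probe sets for it. The same selection favours high C. LK signals, and so favours the rises of both. LOC543226 averaged 831 in C. LK, 298 ± 125 in Sp. LK, 224 ± 17.7 in Sp. NK and 230 in C. NK (SD, n = 3). All 3 C. LK arrays lay above all 9 other arrays, and the other 3 groups overlapped. TaAffx.52479.1.S1_at averaged 179 in C. LK, 111 in Sp. LK, 79.8 in Sp. NK and 107 in C. NK. The low-K response of the split roots (Sp. LK over Sp. NK) minus that of uniform supply (C. LK over C. NK) was -1.56 on the log2 scale for LOC543226 (SE 0.45, limma adjusted p = 0.98). The same difference for TaAffx.52479.1.S1_at was -0.30 (SE 0.44, adjusted p = 0.98 in the same limma fit). No probe set passed an adjusted p of 0.05 for this difference in limma. Of the 61115 probe sets, 2389 had an unadjusted p under 0.05, fewer than the 3056 expected without any effect. Both contrasts contain the C. LK and C. NK arrays, so the large difference for LOC543226 is not independent of its rise. The SE of this difference also leaves out any pairing of Sp. LK with Sp. NK arrays.

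Oxygen transport and respiratory gaseous exchange, the other functions on which the study centred, did not pass the thresholds under uniform low K. LOC543086 (Ta.14486.1.S1_at, oxygen transport) had signals of 719.9, 1018 and 783 in C. LK, against 506, 584 and 853 in C. NK, and the arrays overlapped through C. NK replicate 3. Its log2 fold change was 0.40 (SE 0.19, limma adjusted p = 0.94). Over 20 alternatives it ranged from 0.24 to 0.61 and passed in 1. Ta.28112.1.S1_at, of respiratory gaseous exchange, had signals of 565, 303 and 344 in C. LK, against 296, 358 and 308 in C. NK. Only C. LK replicate 1 stood above the C. NK arrays, and the log2 fold change was 0.28 (SE 0.22, limma adjusted p = 0.94). Over the same alternatives it ranged from 0.02 to 0.46 and never passed.

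**Figure D2:**
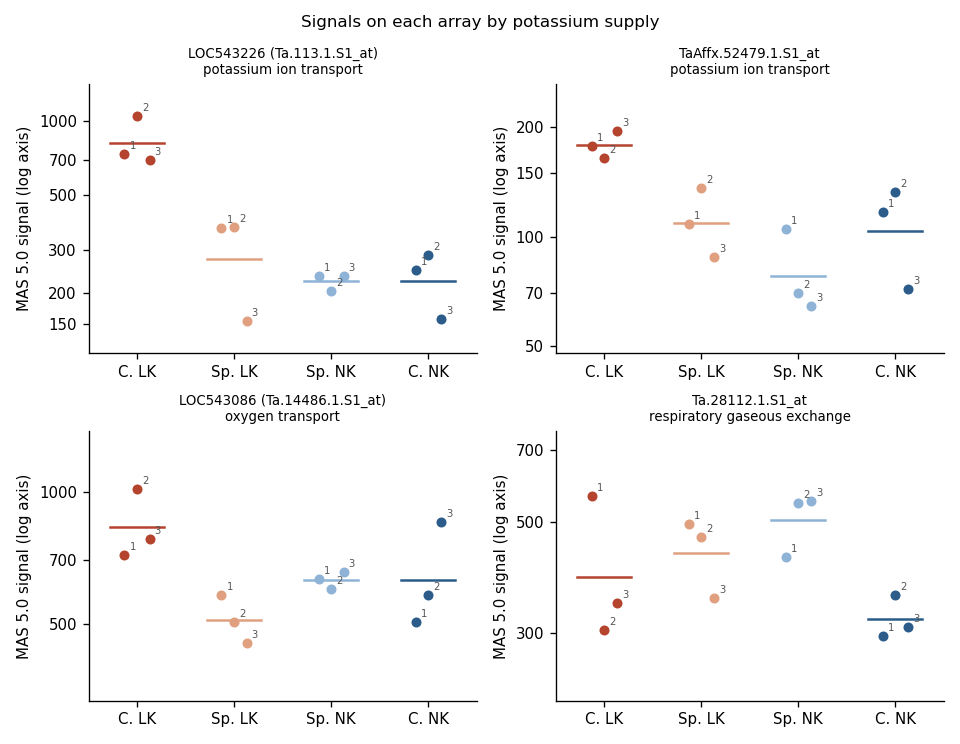
Signals of 4 probe sets on each array (points, numbered by replicate, log axis) in the 4 groups (C. LK, Sp. LK, Sp. NK, then C. NK), with lines at the mean of the log2 signals. Both potassium transport probe sets are separated between C. LK and C. NK, whereas LOC543086 and Ta.28112.1.S1_at overlap between these groups.

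The smallest p among brighter rises belonged to Ta.1677.1.S1_at, an unnamed probe set. It had signals of 752, 722 and 691 in C. LK, against 322, 328 and 354 in C. NK. Both groups were tight, and the log2 fold change was 1.11 (SE 0.18, limma adjusted p = 0.51). It averaged 303 in Sp. LK and 333 in Sp. NK, so the C. LK arrays stood apart from all others. The study's heat map, described below, held this probe set as higher in C. LK. Its differences from C. NK and Sp. LK are thus set by that selection.

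The smallest p among brighter falls belonged to TaAffx.71935.1.S1_at, with signals of 68.7, 112 and 68.7 in C. LK, against 200.3, 227 and 216 in C. NK. The log2 fold change was -1.41 (SE 0.27, limma adjusted p = 0.68). TaAffx.97430.1.S1_at came next, with signals of 120, 107 and 129 in C. LK and 238, 221 and 214 in C. NK, with a log2 fold change of -0.93 (SE 0.19, limma adjusted p = 0.78). Neither of these falls had overlapping arrays, and neither probe set has a gene name. The study's heat map held TaAffx.97430.1.S1_at as lower in C. LK, so its direction is set by that selection.

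The study's heat map of genes with a shared response held 28 probe sets that it selected for a change in C. LK vs. C. NK, so their direction here is set by the selection and they are described without a test. Of 8 probe sets shown as higher in C. LK, 7 passed both thresholds, with log2 fold changes of 0.60 to 1.87 over all 8. All 7 probe sets shown as higher in both C. LK and Sp. NK passed, at 0.69 to 1.14. Of 11 shown as lower in C. LK, 10 passed, at -0.93 to -0.61, and both probe sets shown as lower in C. LK and Sp. NK passed, at -0.63 and -0.74. None of the 28 had overlapping arrays.

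Within the first of these sets, Ta.25964.1.A1_at had signals of 1123, 1115 and 1337 in C. LK and 687, 535 and 454 in C. NK. Ta.18735.1.S1_at had signals of 1080.2, 1127 and 1530 in C. LK and 670.1, 609 and 597 in C. NK. The rises were 1.11 for Ta.25964.1.A1_at and 0.98 for Ta.18735.1.S1_at on the log2 scale. Among the falling sets, Ta.12834.1.S1_s_at had signals of 8594, 7433 and 10341 in C. LK, against 13981, 15130.1 and 11851 in C. NK. It fell by 0.64 on the log2 scale (SE 0.15, limma adjusted p = 0.94), with the highest C. LK array below the lowest C. NK array. Without C. LK replicate 2 it was at -0.53 and without C. NK replicate 2 at -0.56, both under the fold threshold. The other probe set of its cluster, Ta.12834.2.A1_at, had a log2 fold change of -0.45 with overlapping arrays.

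**Figure D3:**
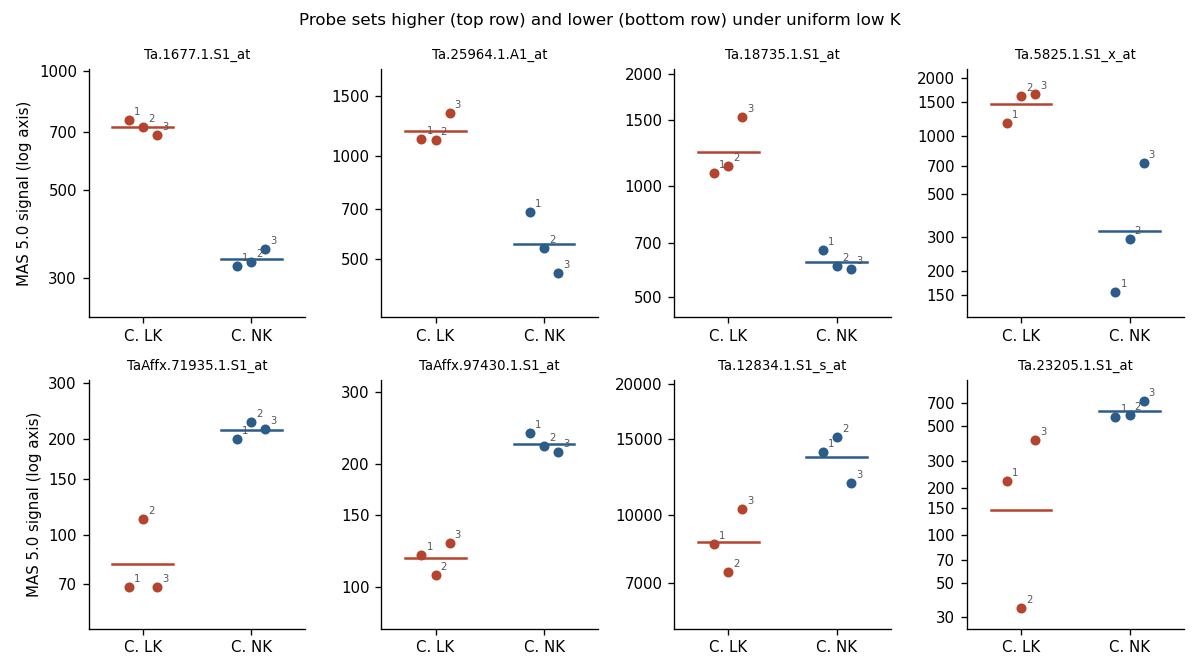
Signals of 8 probe sets on the 3 C. LK and the 3 C. NK arrays (points, numbered by replicate, log axis), with lines at the mean of the log2 signals. In the top row every C. LK array is above every C. NK array, with C. NK replicate 3 of Ta.5825.1.S1_x_at at 722 and the other C. NK arrays at 156 and 293, and in the bottom row every C. LK array is below.

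Of the 793 brighter probe sets with a gene symbol, 4 rose and 7 fell (1.39%), against 1.71% of all brighter probe sets. Besides LOC543226, the rises were those of LOC100037642, LOC542872 and LOC542847. LOC542872 had signals of 719.8, 811 and 898 in C. LK, against 591, 493 and 405 in C. NK. The arrays did not overlap, and the log2 fold change was 0.72 (SE 0.24, limma adjusted p = 0.94). Without C. NK replicate 3 it was 0.58, just under the fold threshold. LOC100037642 had signals of 383, 342 and 303 in C. LK, against 122, 280.1 and 231 in C. NK on the probe set that rose, by 0.78 on the log2 scale. C. NK replicate 2 came close to the lowest C. LK array without overlap. Its call was lost without C. LK replicate 1, at 0.69, and without C. NK replicate 1, at 0.42. The other probe set of LOC100037642 was dim, with signals under 10 on these arrays, and gives no comparison.

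LOC542847, which the study listed under calcium ion binding, was measured by 2 probe sets. Ta.2882.1.S1_at had signals of 1525, 635 and 862 in C. LK, against 477, 549.9 and 742 in C. NK, which is a log2 fold change of 0.70. Ta.2882.1.S1_s_at had signals of 7957, 3168 and 3709 in C. LK, against 2472, 3010.1 and 4135 in C. NK, and its log2 fold change of 0.53 did not pass. In both, C. LK replicate 1 was far above the other C. LK arrays and the groups overlapped. Without that array the first probe set had a log2 fold change of 0.35 and no longer passed.

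The 7 falls among named genes were LOC542864 (-0.91), LOC732708 (-0.85), LOC543150 (-0.81), LOC543100 (-0.78), LOC100037602 (-0.74), LOC100037553 (-0.74) and LOC780582 (-0.70), all as log2 fold changes. The calls of LOC732708, LOC543150 and LOC543100 held under each of 20 alternatives, and the others did not. That of LOC100037553, whose arrays overlapped, was lost in 13 of the 20, with -0.46 without C. NK replicate 1 and -0.57 without C. LK replicate 2. LOC100037602 lost its call in 6, and was at -0.57 without C. NK replicate 1, at -0.60 without C. LK replicate 1 and at -0.69 without C. NK replicate 2. LOC780582 lost it in 5, and was at -0.46 without C. LK replicate 2, at -0.60 without C. NK replicate 2, at -0.63 without C. LK replicate 1 and at -0.65 without C. NK replicate 1. LOC542864 was at -0.62 without C. LK replicate 2 and no longer passed. LOC543150 had signals of 2498, 2574 and 2458 in C. LK, against 4138, 4982 and 4118 in C. NK. Its groups were far apart and the arrays of each were close (SE 0.24, limma adjusted p = 0.94). Another probe set of the same gene, Ta.30711.1.S1_x_at, had a log2 fold change of -0.21 with overlapping arrays. LOC732708 had signals of 81.1, 94.3 and 106 in C. LK, against 148, 195 and 165 in C. NK. Its cluster, TaAffx.143995, held 14 brighter probe sets, of which only 1 fell. Of these 14, 8 had log2 fold changes above 0 and 6 below, from -0.85 to 0.49. LOC543100 had signals of 101, 105 and 134 in C. LK, against 224, 176 and 183 in C. NK. Both were separated between the groups, at low signals.

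LOC780582, known as avnla and related to the avenin storage proteins of the grain, had signals of 363, 289.9 and 615 in C. LK, against 699, 748 and 531 in C. NK on 1 probe set. The highest C. LK array lay above the lowest C. NK array. The other probe set of this gene had a log2 fold change of -0.57 (SE 0.30, limma adjusted p = 0.94). Probe sets of 1 gene also disagreed for LOC100037602, where 1 of 4 fell and the other log2 fold changes were -0.24, -0.12 and -0.05.

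Lists of named genes were small, and since 1.71% of all brighter probe sets passed, a count of 0 in such a list does not set it apart from the rest. Apart from LOC543226, the 8 other brighter probe sets for potassium and other transport and metal uptake had log2 fold changes from -0.17 to 0.05, and none passed. They included the plasma membrane proton ATPase ha1, which powers uptake by carriers, at -0.11 to 0.05 on 3 probe sets. They also held the calcium-permeable vacuolar channel TPC1 at -0.04, the phytochelatin synthase PCS1 at 0.05, and DMAS1 at -0.17 to -0.15. DMAS1 makes the iron-chelating deoxymugineic acid that grass roots release. Its 3 probe sets had signals of 6601 to 26050 in C. LK and of 7823 to 26238 in C. NK. All brighter probe sets together had a median of -0.01.

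Peroxide, thiol and detoxification enzymes, which clear reactive oxygen and conjugate toxins, had 0 of 10 brighter probe sets past the thresholds, with log2 fold changes from -0.43 to 0.01 and a median of -0.08. Of these, 9 were below 0, and PER1, which reduces peroxides, was the lowest, with signals of 202, 141 and 159 in C. LK and 234, 197 and 239 in C. NK. Core histones had 0 of 17, with a median of 0.10 and a highest value of 0.31. Translation factors and ribosomal proteins had 0 of 9, with a median of 0.02. Tubulins and cell wall genes had 0 of 14, with a median of -0.01, although 1 alpha-tubulin probe set was far from the rest. That probe set, Ta.723.1.S1_at (TUBA), had signals of 2159, 3265 and 2501 in C. LK, against 258, 556 and 1981 in C. NK. Its groups did not overlap, but its C. NK arrays spread widely, and the log2 fold change of 1.98 had an SE of 0.94 (limma adjusted p = 0.94). The other TUBA probe set, Ta.812.1.S1_x_at, was at -0.20.

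Defence genes had 0 of 5 brighter probe sets past the thresholds and were variable within groups. WGA2, a wheat germ agglutinin that binds chitin, had signals of 875, 2099 and 987 in C. LK, against 113, 1861 and 1074 in C. NK. PR5, a thaumatin-like protein, had signals of 724, 21.8 and 367 in C. LK, against 420.2, 153 and 261 in C. NK. Both overlapped, and the sign for PR5 turned with 1 array, being -0.51 on the log2 scale with all arrays and 1.01 without C. LK replicate 2. The dehydrin Rab15, a protein of water deficit, had a log2 fold change of 0.28 with overlapping arrays.

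Markers of other tissues were checked because a root sample can carry them. Of 36 probe sets for photosynthesis genes, 6 were brighter, none passed, and the summed signal of the 36 was 7892 to 8462 in C. LK, against 8595 to 11194 in C. NK. Most of this sum (96.2%) came from the 28 probe sets of the plastid gene rbcl, and the PsbO probe set, of the leaf oxygen-evolving complex, reached at most 111 in C. LK and 168 in C. NK. Of 28 probe sets for grain proteins, 4 were brighter and 1 fell, that of avnla, and the summed signal was 6645 to 7392 in C. LK, against 6595 to 8094 in C. NK. The sum of the photosynthesis markers was thus lower in C. LK without overlap, and its part in the falls was not tested.

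The study sorted 76 probe sets, those of transport and gaseous exchange included, into functional categories for comparisons that share the C. LK or C. NK arrays, so their behaviour is a description. Of the 67 brighter ones, 9 rose and none fell, against 0.923% up and 0.791% down among all brighter probe sets. Their median log2 fold change was 0.37, against -0.01 over all. Probe sets picked for a gain of Sp. NK over C. NK tend to have low C. NK signals. Those picked for a loss of Sp. LK against C. LK tend to have high C. LK signals. Both choices favour values above 0, so the excess of rises and the median are partly set by the selection. What remains beyond it was not tested. Iron ion binding had 2 rises among 4 brighter probe sets. Ta.18497.1.S1_at had signals of 236, 236 and 193 in C. LK and 113, 76.4 and 116 in C. NK, and Ta.5546.3.S1_a_at had 971, 925 and 808 in C. LK and 745, 505 and 396 in C. NK. Transcription factors had 0 rises among 11, at 0.05 to 0.70 on the log2 scale, and protein kinases had none among 4. Glutathione transferases had none among 4, at -0.52 to 0.01. The single jasmonic acid signalling probe set had a log2 fold change of -0.29.

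Probe sets whose identifiers share a cluster number are designed on related transcripts, and several clusters moved together. Among 4584 clusters with 2 or more brighter probe sets, 10 had at least 2 rises, 8 had at least 2 falls, and none had both a rise and a fall. In all, 85 of the clusters had at least 1 rise and 67 at least 1 fall, so most of these had a single call. With so few such clusters, the lack of 1 with both says little. These probe sets may share sequence, which was not checked, so the agreement cannot be taken as one of independent measurements. Cluster Ta.21153 rose on both of its probe sets, with signals of 1805, 1741 and 1668 in C. LK and 912, 1119 and 1188 in C. NK for Ta.21153.1.A1_x_at. Cluster Ta.30527 rose by 0.76 and 0.92 on the log2 scale and Ta.6547 by 1.51 and 1.60, all without overlap between the groups. Ta.6547.2.S1_at lost its call without C. LK replicate 3 and without C. NK replicate 1 and ranged from 1.01 to 2.16 with 1 array left out, whereas the other probe sets of these 3 clusters passed in all 6 such fits.

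Clusters Ta.28394, Ta.10, Ta.13337 and Ta.28289 each had 3 falls. The 4 brighter probe sets of Ta.28394 had log2 fold changes of -0.64 to -0.58, and none overlapped. All 4 were under the fold threshold without C. LK replicate 2, at -0.47 to -0.42, and none passed without C. NK replicate 2. Only Ta.28394.3.S1_x_at passed without C. LK replicate 1. Ta.28394.1.S1_a_at had signals of 13212, 12602 and 20568 in C. LK, against 22701, 24663 and 21284 in C. NK, with C. LK replicate 3 close to the C. NK arrays. All 3 probe sets of cluster Ta.10 fell, by 0.73 to 0.93 on the log2 scale, but each overlapped, because C. LK replicate 3 was higher than C. NK replicate 3. Ta.10.1.S1_x_at passed in all 6 fits that left out 1 array, Ta.10.2.S1_x_at was lost without C. NK replicate 1, at -0.54, and Ta.10.1.S1_a_at without C. NK replicate 1, C. LK replicate 1 or C. LK replicate 2, down to -0.46. Cluster Ta.27657, in which some probe sets are named for histone H2A-9, had 2 rises among 14 brighter probe sets. These were on Ta.27657.9.S1_at and Ta.27657.9.S1_x_at, which carry no gene name, and the other 12 lay between -0.13 and 0.57. The probe sets named for H2A-9 lay between -0.02 and 0.21. The calls of the 2 rises were lost without C. LK replicate 1, at 0.33 and 0.49, and without C. NK replicate 1 or C. NK replicate 2. That of Ta.27657.9.S1_x_at was lost also without C. LK replicate 2.

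**Figure D4:**
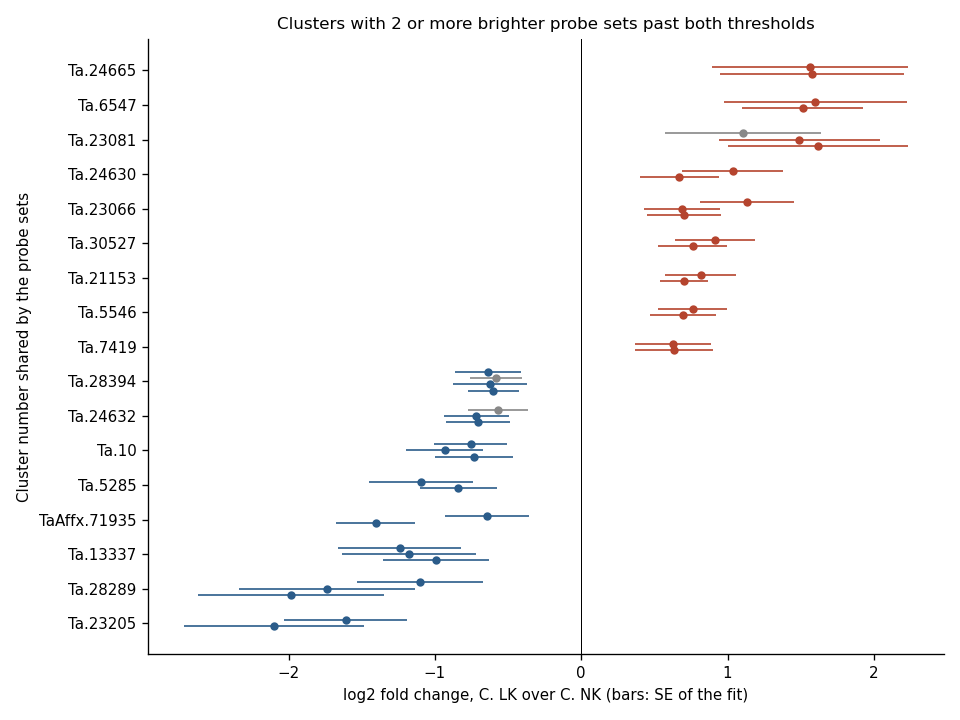
Log2 fold change of C. LK over C. NK for every brighter probe set of 17 clusters with 2 or more calls in the same direction, without the large H2A-9 cluster, and bars give the standard error of the fit. Probe sets of each drawn cluster lie on the same side of 0, which follows in large part from how the clusters were chosen. In the H2A-9 cluster, 12 brighter probe sets were above 0 and 2 below. Grey points did not pass both thresholds.

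Of the 20 largest brighter changes, 10 in each direction, 11 kept their call in all 6 fits that left out 1 C. LK or C. NK array. The probe sets in this paragraph and the next were chosen after their values were seen. Among the 10 largest brighter rises, C. NK replicate 3 was the highest C. NK array in 8, against 31.5% of all brighter probe sets, and so made those rises smaller. Ta.5825.1.S1_x_at had signals of 1158, 1606 and 1644 in C. LK, against 156, 293 and 722 in C. NK, which gave a log2 fold change of 2.18 (SE 0.70, limma adjusted p = 0.94). Ta.22933.1.S1_at had signals of 499, 613 and 724 in C. LK, against 59.4, 105 and 404 in C. NK, which gave 2.15. In both, the C. NK arrays spread more widely than the C. LK arrays. In both, replicate 3 was also the highest array of C. LK, Sp. LK and Sp. NK. Ta.5825.1.S1_x_at had signals of 148, 189 and 367 in Sp. LK and of 97.2, 116 and 873 in Sp. NK. Not all of the 10 were alike, since replicate 3 was the lowest C. LK and C. NK array for LOC543226. Whether a variation shared by replicate number enters these rises was not tested. The largest rise, Ta.24155.2.S1_s_at at 2.91, had signals of 495, 1494 and 681 in C. LK, against 48.3, 24.2 and 1011 in C. NK, and overlapped. It kept its call in 2 of 6 fits that left out 1 C. LK or C. NK array.

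Among the 10 largest brighter falls, C. LK replicate 2 was the lowest C. LK array in 9, against 40.0% of all brighter probe sets. Ta.23205.1.S1_at had signals of 223, 34.3 and 406 in C. LK, against 570.0, 589 and 728 in C. NK, which gave a log2 fold change of -2.10 (SE 0.61, limma adjusted p = 0.94). It averaged 1156 in Sp. LK and 1161 in Sp. NK, above both uniform supplies. TaAffx.78864.1.S1_at, the largest fall at -2.19, had signals of 77.0, 11.3 and 106 in C. LK and 190.1, 271 and 171 in C. NK. Without C. LK replicate 2 these falls were -1.05 and -1.19 on the log2 scale and still passed. LOC543226, by contrast, kept a log2 fold change of 1.62 to 2.05 in all 6 such fits and passed in each.

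Among the 210 brighter falls, C. LK replicate 3 was the C. LK array nearest to C. NK in 141 (67.1%), while it was the highest C. LK array in 37.9% of all brighter probe sets. C. NK replicate 3 was the C. NK array nearest to C. LK in 109 falls (51.9%), and the lowest C. NK array in 43.8% of all brighter probe sets. Among the 245 rises the nearest arrays were more even, with C. LK replicate 3 in 96 and C. NK replicate 3 in 106. Leaving out C. LK replicate 3 gave 359 rises and 581 falls among brighter probe sets, of which 167 and 185 were also called with all arrays. Leaving out C. NK replicate 3 gave 556 rises and 507 falls, of which 175 and 161 were also called with all arrays. Leaving out C. LK replicate 2 gave 365 rises and 160 falls, of which 160 and 95 were shared. Thus between 95 and 185 of the 210 falls, and between 145 and 175 of the 245 rises, were called again when 1 of these 6 arrays was left out.

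**Figure D5:**
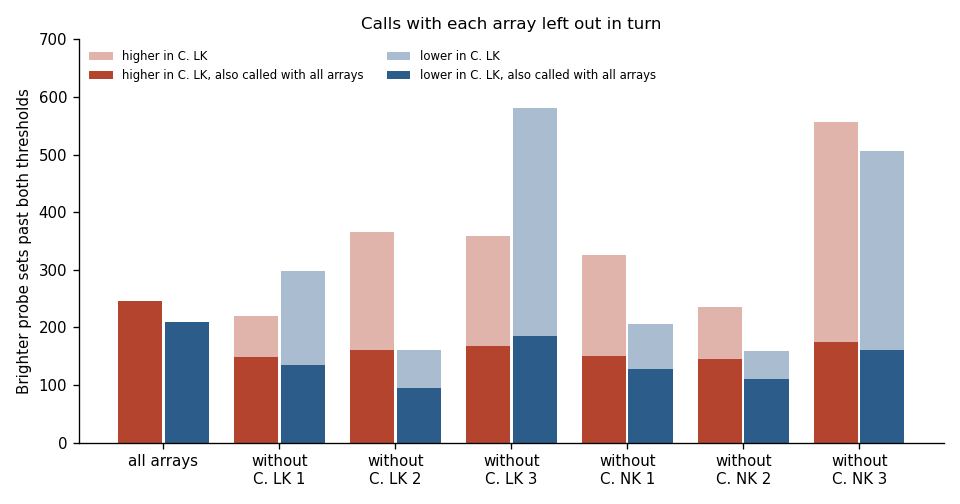
Bars give the brighter probe sets past both thresholds with all arrays and with each C. LK or C. NK array left out in turn, higher in C. LK (red) and lower in C. LK (blue), and the dark part of each bar is the number also called with all arrays. The highest bars are the 581 falls without C. LK replicate 3 and the 556 rises without C. NK replicate 3.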

How the data were processed

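Total RNA of wheat roots was hybridised to 12 Affymetrix Wheat Genome Arrays, 3 per group. The deposited values are log2 signals, 1 per probe set and array, which the authors computed with MAS 5.0 and normalized in GeneSpring (from the submitters' processing notes and the methods). A genome build is not given in the sources used here. Raw intensities and detection calls were not used, so low signals are not marked as absent, and signals under 32 made up 30.4% to 33.8% of each array. The number of arrays limits the precision.

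All 12 arrays were fitted as 4 group means in R 4.3.3 with limma 3.58.1 (lmFit, then eBayes with a variance trend), with no further scaling, and p-values were two-sided and adjusted over 61115 probe sets. With 3 arrays a group, the smallest p of an exact permutation test is 0.1, and none was run. The script was tested on simulated data. Alternatives were the methods' t-test, the 6 arrays alone, no variance trend, quantile normalization, a floor at a log2 signal of 5, brighter probe sets only, the replicate number as a block, and each array left out.

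The probe sets, gene lists and thresholds were chosen with earlier results of these data known. Named probe sets were those of the study's heat map and transport categories, brighter probe sets with 1 gene symbol past both thresholds with the other probe sets of the same gene, the 2 smallest p-values in each direction, and the extreme member of each pattern list with 5 or more probe sets. The 18 pattern lists matched few names (6 defence, 5 dehydrin, 3 transport, 2 peroxide, 2 tubulin and 1 heat shock probe set, and none for the other 12), so 10 lists of gene symbols were written after the annotation was seen. Of the 1273 named probe sets, 1272 were matched to the gene table of IWGSC CS RefSeq v2.1, used for names only. Genes matched to no list and the annotation of unnamed probe sets were not used here.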

Additional observations from a re-analysis of the deposited data

How the results depend on the processing

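The count past an adjusted p of 0.05 was 0 in limma and in the methods' t-test, in the fit of the 6 arrays, without a variance trend, after quantile normalization, over brighter probe sets only and in the blocked fit described below. It was 3 with log2 signals under 5 raised to 5, all dimmer probe sets, and 0 to 1 with each array left out, the 1 being TaAffx.5370.2.S1_at without C. NK replicate 2. Raising low signals to 5 gave 604 rises and 525 falls over all probe sets. The methods' t-test called 123 rises and 84 falls among brighter probe sets at the study thresholds, of which 113 and 75 were shared with limma. With each of the 12 arrays left out, rises ranged from 952 to 1566 and falls from 907 to 1784 over all probe sets, and from 220 to 556 and from 159 to 581 among brighter ones. Without C. LK replicate 3 there were 1784 falls in all. Of the named probe sets, 38 passed with all arrays and 28 to 38 with 1 array left out.

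For C. LK and C. NK arrays with the same replicate number, the deviations from the group mean correlated at 0.19, -0.03 and -0.23. For those with different numbers the correlations ran from -0.27 to 0.27. The Sp. LK and Sp. NK arrays were not compared in this way, so a pairing by replicate number across the groups was not settled. With the replicate block, 304 brighter probe sets rose and 238 fell, and the calls of the named probe sets did not change. A fit of the 6 arrays with the block, chosen after seeing the data, gave 315 and 206.

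Among the 52 named probe sets, directions turned for 5, none of which passed with all arrays. The log2 fold change of Ta.280.2.A1_at was 0.0227 after quantile normalization. With each array left out in turn it ranged from -0.27 to 0.22, PR5 (Ta.24501.1.S1_at) from -1.52 to 1.01, Ta.30816.1.S1_at from -0.37 to 0.0656, TaAffx.118164.1.S1_x_at from -0.32 to 0.23 and Ta.9366.2.S1_at from -0.0563 to 1.76. The cause was not tested.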

Other observations

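Among dimmer probe sets of named genes, CAT1, a catalase that breaks down hydrogen peroxide, had signals of 39.8, 38.4 and 39.4 in C. LK and of 6.13, 13.2 and 2.75 in C. NK. The C. NK signals lie in the range where background dominates, so no fold change is given. Cluster Ta.23307 was lower in C. LK on all 5 of its probe sets, of which only Ta.23307.3.S1_at was brighter, with signals of 122, 87.7 and 121 in C. LK and 219, 399 and 252 in C. NK (log2 fold change -1.37, SE 0.30, limma adjusted p = 0.94). Cluster Ta.9546 was lower in C. LK without overlap on 3 of its probe sets, at -0.47 to -0.40 on the log2 scale, which is under the fold threshold. These probe sets were chosen after their values were seen.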
